A study of Macaca mulatta with 4 samples.

Results

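NPAS4, ARC, NR4A1, NR4A2, NR4A3, IER2, IER5, BTG2, TRIB1 and SIK1 are rapid activity genes, whose transcription is switched on soon after a cell is stimulated. The 10 genes are a chosen set from this class that leaves out the EGR and AP-1 families, and each was found by its identifier among the 33618 genes of the deposited count table. NR4A1 is listed there as LOC696797, a gene number that RefSeq names NR4A1. All 10 passed the filter on low counts, which left 17693 genes.

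RNA was sequenced from prefrontal cortex of wild type rhesus macaques (Macaca mulatta) in 4 libraries, 2 control and 2 sevoflurane. Sevoflurane is a volatile anaesthetic given by inhalation. Animals breathed it, per the labels' protocols, at about 2.5 to 3% for 4 hours on 3 occasions, the first near postnatal day 7 and the others 14 and 28 days later, and cortex was taken at once after the third. The agent of the control libraries is given as none. The sources used here do not give the handling of control animals, their age at sampling or the time of day. Sevoflurane itself, handling, age and time of day therefore cannot be told apart. Nothing in the labels states that each library is a different animal, so p-values capture the spread among these libraries alone, and that spread may be technical.

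In neurons, calcium that enters through synaptic receptors and voltage-gated channels activates kinases and the transcription factors CREB, SRF and MEF2, which switch on rapid genes without new protein synthesis. Some of their products are transcription factors that drive a later wave of genes, and others act directly at synapses or in signalling. NPAS4 is largely restricted to neurons and responds to calcium, whereas growth factors and stress also induce IER2, IER5, BTG2, TRIB1, SIK1 and the NR4A genes in many other cell types. In bulk tissue, fewer cells of a type and less RNA per cell cannot be told apart.

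Library totals lay between 7793757 counts (control replicate 3) and 11706115 counts (sevoflurane replicate 3). Control replicate 3 was the most distant library along principal component 1 (51% of variance), at -50.0 where the other libraries had values from -0.443 to 28.8. Along principal component 2 (28.4% of variance) it was control replicate 2, at 39.2 where the other libraries had values from -18.4 to -6.86. The control libraries thus did not lie together on these axes. Markers of the labelled tissue were present: the 8 general neuron markers summed to 7122 CPM or more in every library, and no marker of any cell type list was at 0. CPM is the count scaled to a common library size after TMM (trimmed mean of M values) correction for composition. Levels are mean ± SD over n = 2 libraries per group.

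After sevoflurane, 5 of the 10 genes fell: NPAS4, ARC, NR4A1, NR4A3 and TRIB1. The other 5 (NR4A2, IER2, IER5, BTG2 and SIK1) did not pass the test. edgeR's quasi-likelihood test, with p-values adjusted by Benjamini-Hochberg over the 17693 genes and called under 0.05, found 0.537% of all tested genes lower and 0.0622% higher. None of the 10 was called higher by edgeR, DESeq2 or limma-voom, and at an unadjusted p under 0.05 there were 6 of the 10 lower and 0 higher, against 5.57% and 4.35% of all genes. All 10 log2 fold changes were negative, as were 50.3% of those of all genes, and both control libraries lay above both sevoflurane libraries for 9 of the 10, against 20.4% of all genes. The median log2 fold change was -1.12 over the 10 genes and -0.00 over all genes. Without control replicate 2, 6 of the 10 were lower against 1.24% of all genes. Without sevoflurane replicate 3, 5 were lower against 1.04%, and without control replicate 3, 5 were lower against 0.63%.

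**Figure D1:**
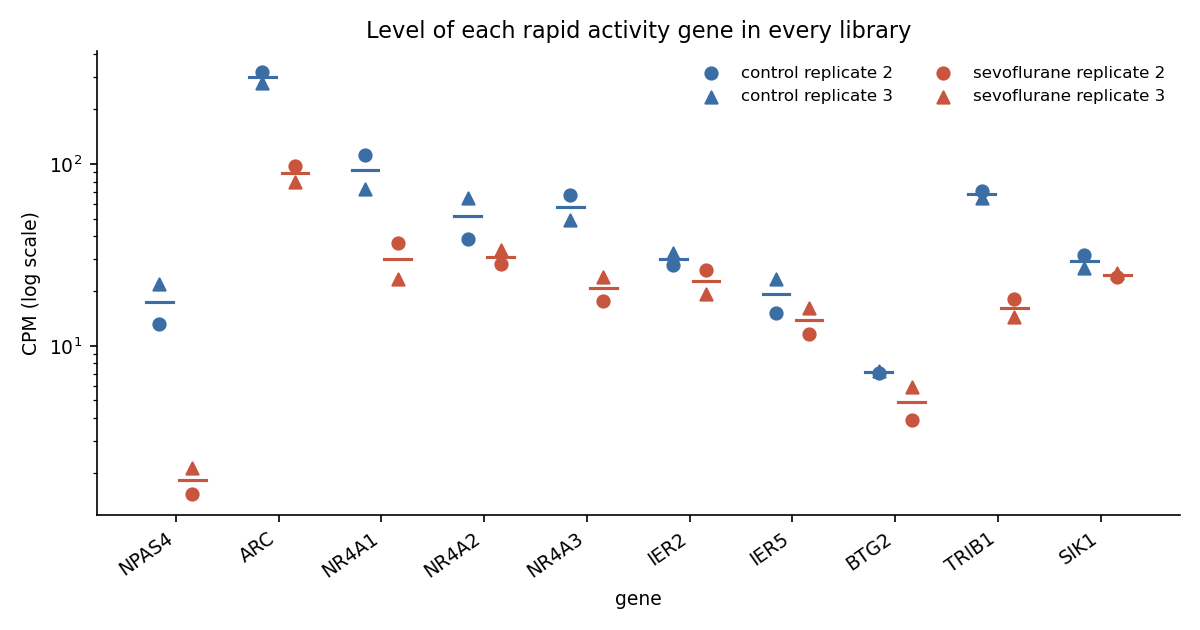
Level of each of the 10 genes in CPM on a log scale, with circles for replicate 2, triangles for replicate 3 and a bar for the mean of each group (control blue, sevoflurane red). The gap between groups is widest for NPAS4 (17.5 against 1.83 CPM), while the symbols of SIK1 lie between 24.0 and 31.4 CPM.

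The transcription factor NPAS4 had the largest change of the 10. NPAS4 is a basic helix-loop-helix protein that pairs with ARNT or ARNT2 and adjusts the inhibitory synapses that a neuron receives. Its level was 13.2 and 21.7 CPM in control replicates 2 and 3, and 1.54 and 2.12 CPM in sevoflurane replicates 2 and 3. Both sevoflurane libraries were thus far below both controls, and the 4 control-to-sevoflurane ratios ran from 6.21 to 14.1. The mean fell from 17.5 ± 6.06 to 1.83 ± 0.413 CPM, which is -3.24 on the log2 scale (SE 0.37, 95% interval -4.06 to -2.42, edgeR adjusted p = 0.00919). Few reads lay behind the low values: 135 and 164 in the controls, and 18 and 25 after sevoflurane. The exact 95% Poisson intervals of the last counts, which cover counting error only, were 10.7 to 28.4 and 16.2 to 36.9 reads. By fold change NPAS4 ranked 7 from the lowest of all 17693 tested genes. With single libraries left out the value was between -3.56 and -2.84, and NPAS4 was called each time.

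The NR4A genes encode orphan nuclear receptors, transcription factors without a known classical hormone ligand. NR4A1 had 112 and 73.2 CPM in control replicates 2 and 3, and 36.7 and 23.4 CPM in sevoflurane replicates 2 and 3. The groups did not overlap, but within each group 1 library had more than 1.5 times the level of the other (ratios of 1.53 and 1.57). NR4A1 fell by 1.63 on the log2 scale (SE 0.26, 95% interval -2.20 to -1.05, edgeR adjusted p = 0.0304). The call was lost without TMM scaling (adjusted p = 0.054) and without a filter (0.064), at almost the same fold changes of -1.62 and -1.63.

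NR4A3 had 67.3 and 49.2 CPM in control replicates 2 and 3, and 17.6 and 23.8 CPM in sevoflurane replicates 2 and 3. The lowest control was about 2-fold above the highest sevoflurane library (ratio 2.06). NR4A3 fell by 1.49 on the log2 scale (SE 0.22, 95% interval -1.99 to -1.0, edgeR adjusted p = 0.0223). The call held only narrowly without TMM scaling (edgeR adjusted p = 0.0422) and without a filter (0.0485).

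NR4A2, also known for its role in dopamine neurons, had 38.4 and 65.0 CPM in control replicates 2 and 3, and 28.2 and 33.5 CPM in sevoflurane replicates 2 and 3. Control replicate 2 was close to the sevoflurane libraries, at 1.15 times the higher of them, and control replicate 3 was well above. The log2 fold change of -0.74 (SE 0.24, 95% interval -1.29 to -0.19) did not pass (edgeR adjusted p = 0.316). The outcome turned on the control libraries: leaving out control replicate 2 gave -1.08 (adjusted p = 0.0269) and leaving out control replicate 3 gave -0.32 (0.542). It was -0.62 without sevoflurane replicate 2 (adjusted p = 0.722). Whether NR4A2 differed in its response from NR4A1 and NR4A3 was not tested.

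The reads of the 3 receptors add up to 2233 and 1413 in control replicates 2 and 3, and to 965 and 952 in sevoflurane replicates 2 and 3. NR4A2 took 17.6% of them in control replicate 2 (95% Wilson interval 16.1 to 19.3) and 34.7% in control replicate 3 (32.2 to 37.2). After sevoflurane its share was 34.2% (31.3 to 37.2) and 41.5% (38.4 to 44.6). The share of NR4A1 was 51.5% and 39.1% in the controls and 44.5% and 29.0% after sevoflurane, and that of NR4A3 was 30.9% and 26.3% against 21.3% and 29.5%. For each receptor the shares overlapped between the groups. Shares of reads are not shares of molecules, since transcript length was not available to scale them.

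**Figure D2:**
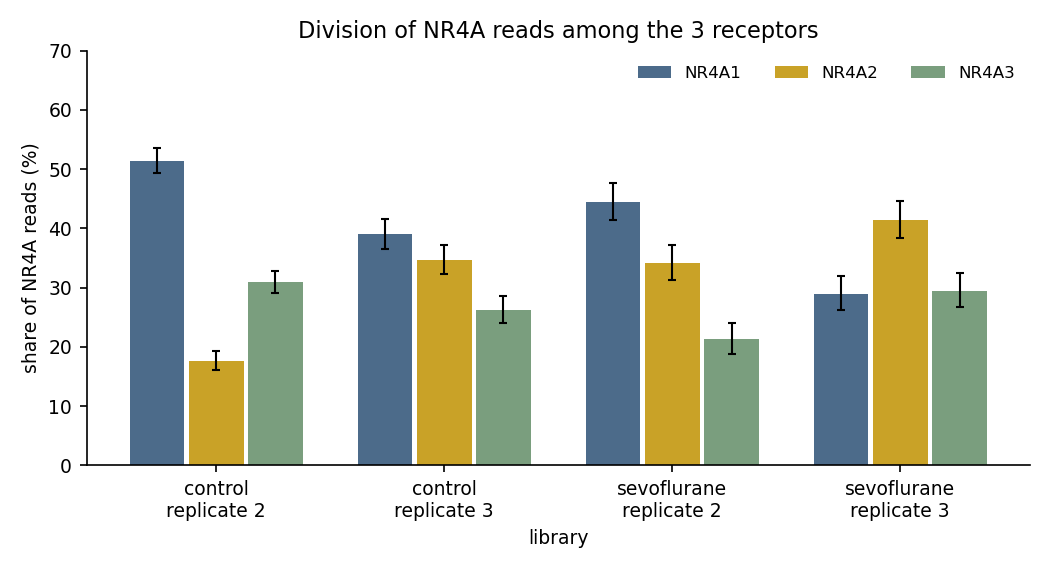
Share of the reads of NR4A1, NR4A2 and NR4A3 that fell to each gene, in percent, for the 4 libraries, with 95% Wilson intervals that cover counting error only. The NR4A2 bar has its minimum, 17.6%, for control replicate 2 and its maximum, 41.5%, for sevoflurane replicate 3, and the bars of the groups overlap for every receptor.

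ARC is the synaptic effector among the 10 genes, a protein related to retroviral Gag that promotes the removal of AMPA-type glutamate receptors from synapses. It had 321 and 278 CPM in control replicates 2 and 3, and 97.5 and 79.9 CPM in sevoflurane replicates 2 and 3. Within each group the libraries were within 1.22 times of each other, and the 4 control-to-sevoflurane ratios ran from 2.85 to 4.02. The mean fell from 299 ± 30.6 to 88.7 ± 12.4 CPM, which is -1.76 on the log2 scale (SE 0.15, 95% interval -2.09 to -1.42, edgeR adjusted p = 0.0038). ARC had the smallest biological coefficient of variation of the 10 genes (0.114, against 0.229 for NPAS4 and a median of 0.17 over all genes), and by p-value it ranked 3 of 17693. It had at least 942 reads in every library, so counting error was small.

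TRIB1 and SIK1 act in kinase signalling. TRIB1 is a pseudokinase that brings proteins to the ubiquitin ligase COP1. It had 71.3 and 64.7 CPM in control replicates 2 and 3, and 18.0 and 14.4 CPM in sevoflurane replicates 2 and 3. The libraries of a group lay close together and the groups far apart. TRIB1 fell by 2.07 on the log2 scale (SE 0.18, 95% interval -2.48 to -1.66, edgeR adjusted p = 0.0043), which ranked 4 of 17693 by p-value. With single libraries left out it stayed between -2.24 and -1.91 and was called each time.

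SIK1, the salt-inducible kinase that is itself induced through CREB and restrains the CREB coactivators of the CRTC family, had 31.4 and 26.8 CPM in control replicates 2 and 3, and 24.0 and 25.0 CPM in sevoflurane replicates 2 and 3. The groups did not overlap, but the lowest control was only 1.07 times the highest sevoflurane library. Its log2 fold change of -0.25 (SE 0.18, 95% interval -0.66 to 0.17) did not pass (edgeR adjusted p = 0.736). The interval does not reach a fall of 2-fold, which would be -1 on this scale.

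IER2, IER5 and BTG2 are small proteins induced early by growth factors, activity or stress. IER2, a nuclear protein, had 27.8 and 32.2 CPM in control replicates 2 and 3, and 26.2 and 19.3 CPM in sevoflurane replicates 2 and 3. The closest libraries of the 2 groups differed by 1.06 times, and the log2 fold change of -0.40 (SE 0.21, 95% interval -0.87 to 0.08) did not pass (edgeR adjusted p = 0.608). This interval also stops short of a 2-fold fall.

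IER5, which binds the heat shock factor HSF1, was the one gene of the 10 whose groups overlapped. It had 15.1 and 23.3 CPM in control replicates 2 and 3, and 11.5 and 16.2 CPM in sevoflurane replicates 2 and 3. The log2 fold change was -0.46 (SE 0.28, 95% interval -1.09 to 0.16, edgeR adjusted p = 0.66). Leaving out control replicate 3 gave -0.13 and leaving out control replicate 2 gave -0.75, and IER5 was called in neither.

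BTG2, an antiproliferative protein that recruits the CCR4-NOT deadenylase to messenger RNA, had 7.12 and 7.29 CPM in control replicates 2 and 3, and 3.93 and 5.94 CPM in sevoflurane replicates 2 and 3. The controls were alike and the sevoflurane libraries unlike, at a ratio of 1.51. With 46 to 73 reads per library this gene rested on few counts, and its log2 fold change of -0.54 (SE 0.35, 95% interval -1.32 to 0.23) did not pass (edgeR adjusted p = 0.679). The intervals of NR4A2, IER5 and BTG2 all reach beyond -1, so a 2-fold fall lies within them.

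**Figure D3:**
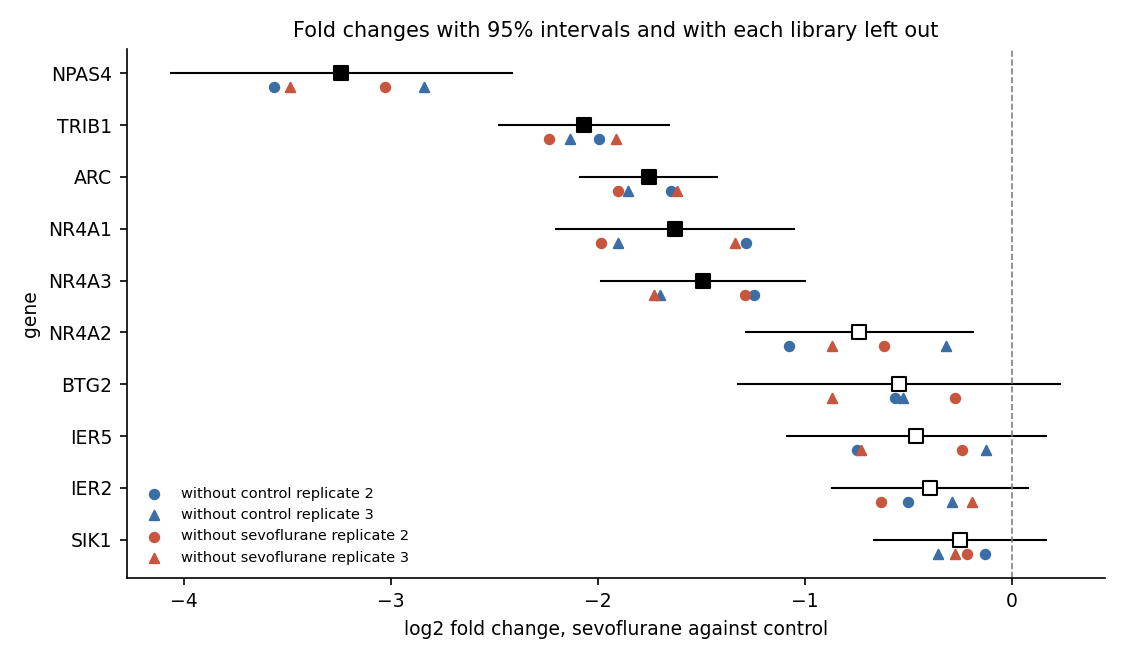
Log2 fold changes of sevoflurane against control (squares, filled where called) with 95% intervals, and below each the values with 1 library left out (blue for a control, red for a sevoflurane library). The 5 called genes lie between -3.24 and -1.49, and the widest shift among the others is that of NR4A2, from -1.08 to -0.32.

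The 10 genes thus fell into those with log2 fold changes from -3.24 to -1.49, all called, and those from -0.74 to -0.25, none called. Of all tested genes, 2.75% had a value below -1, as had 5 of the 10. The 5th percentile of all genes was -0.74 and the 1st percentile -1.44, so every called member lay below the 1st percentile and NR4A2 lay at the 5th. Summed over the 10 genes, the level was 705 and 641 CPM in control replicates 2 and 3, and 265 and 244 CPM in sevoflurane replicates 2 and 3. ARC alone gave 321 and 278 CPM of these sums in the controls, and 97.5 and 79.9 CPM after sevoflurane.

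**Figure D4:**
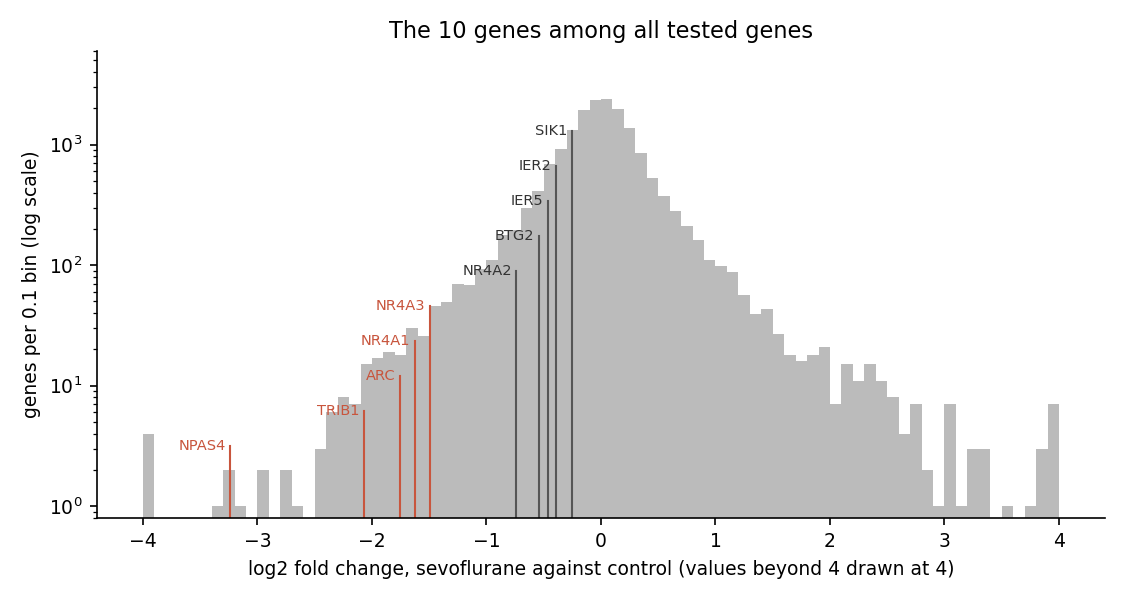
Histogram of the log2 fold changes of the 17693 tested genes on a log count axis, with the 10 genes drawn as lines (red where called lower, grey where not called; line heights only separate the names). NPAS4 at -3.24 lies in the sparse lower tail, and SIK1 at -0.25 lies within the bulk of genes.

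Other genes of the pathway were taken from fixed lists. Of 31 tested rapid activity genes outside the 10, 4 were lower, 0 higher and 27 not called, with a median of -0.20. At an unadjusted p under 0.05, 11 of the 31 were lower and 1 higher. For this list and those below, 5.57% of all genes were lower and 4.35% higher at that threshold. DESeq2 called 5 lower and 0 higher, where it called 1.24% of all genes lower. The called genes were the transcription factors EGR1 (-2.08, SE 0.15, edgeR adjusted p = 0.00169), EGR4 (-2.31, SE 0.24, 0.00676) and FOS (-1.59, SE 0.27, 0.0399), and DUSP6, a phosphatase that switches off ERK (-1.56, SE 0.15, 0.00483). EGR1 had 215 and 237 CPM in control replicates 2 and 3, and 59.5 and 47.5 CPM in sevoflurane replicates 2 and 3, with no overlap. With single libraries left out, the log2 fold change of EGR1 lay between -2.25 and -1.93. FOS was not called without control replicate 2 (-1.34, adjusted p = 0.0725), without TMM scaling (0.0623) or without a filter (0.0775).

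Of 15 delayed activity genes, a list that holds known NPAS4 targets, only INHBA, a subunit of activin, was lower by edgeR, 14 were not called, and the median was -0.22. At an unadjusted p under 0.05, 7 of the 15 were lower and 1 higher. INHBA fell from 19.7 ± 0.13 to 7.83 ± 0.684 CPM (-1.33, SE 0.23, edgeR adjusted p = 0.0431). Its call was lost when control replicate 2 (adjusted p = 0.0545), control replicate 3 (0.0671) or sevoflurane replicate 2 (0.0701) was left out, and also without TMM scaling (0.0614) or without a filter (0.0795). The list had 2 lower genes when control replicate 2 was left out, 0 when it was control replicate 3, 3 when it was sevoflurane replicate 2 and 2 when it was sevoflurane replicate 3. DESeq2 called 3 lower, against 1.24% of all genes.

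None of the 24 dimer partners, binding partners and substrates of the 10 proteins was called by edgeR, DESeq2 or limma-voom, and 1 was lower at an unadjusted p under 0.05 (median -0.07). The smallest p-values belonged to HDAC5 (-0.27, SE 0.12), a histone deacetylase phosphorylated by SIK kinases, and HSF1 (-0.45, SE 0.21). None of 11 tested paralogs was called by edgeR or limma-voom (median -0.26), and 3 were lower at an unadjusted p under 0.05. DESeq2 called 2 of them lower, SIK3 (-0.61, SE 0.12, edgeR adjusted p = 0.0662) and TRIB2 (-0.63, SE 0.13, 0.0737), as did edgeR without control replicate 2. The paralogs SIM1, SIM2 and TRIB3 did not pass the filter on low counts.

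Of 28 genes that act upstream (calcium channels, NMDA receptor subunits, calcineurin, kinases, CREB, SRF and MEF2 factors), none was called by edgeR, DESeq2 or limma-voom, and the median was 0.14. At an unadjusted p under 0.05, 2 were higher, the kinase gene RPS6KA5 (0.61, SE 0.18) and the calcineurin subunit PPP3CB (0.35, SE 0.13). Without control replicate 2, MEF2C was called higher, a gene named here after its value was seen.

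Cell type markers were set beside these values. None of 8 general, 7 excitatory and 7 inhibitory neuron markers was called by edgeR, DESeq2 or limma-voom, with medians of 0.16, -0.13 and 0.15. At an unadjusted p under 0.05, 1 inhibitory marker was lower and no other neuron marker passed. General neuron markers summed to 7122 and 8190 CPM in control replicates 2 and 3, and to 8568 and 8525 CPM in sevoflurane replicates 2 and 3. Excitatory markers summed to 4520 and 6638 CPM in the controls and to 5301 and 5097 CPM after sevoflurane, with 5 of 7 log2 fold changes negative, and inhibitory markers to 454 and 487 against 516 and 440 CPM. The sums of the general markers were higher in both sevoflurane libraries, and those of the other neuron lists overlapped between the groups. MAP2 alone gave 3356 and 3367 CPM of the general sums in the controls, and 3719 and 3842 CPM after sevoflurane. All 8 general markers had positive log2 fold changes. Their mean log2 deviations overlapped between the groups, at -0.27 and 0.10 in the controls and 0.09 and 0.08 after sevoflurane. With 1 library left out, NEFL and SLC17A7 were called higher without control replicate 3, and NRGN and SST lower without control replicate 2.

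All 8 oligodendrocyte markers were lower (median -1.87), with sums of 9144 and 14475 CPM in control replicates 2 and 3, and 2384 and 3563 CPM in sevoflurane replicates 2 and 3. Of 8 astrocyte markers, GFAP was lower and 7 not called (-1.41, SE 0.16, edgeR adjusted p = 0.00928). The list summed to 9772 and 8125 CPM in the controls and to 5941 and 6025 CPM after sevoflurane. GFAP alone gave 5249 and 3877 CPM of these sums in the controls, and 1531 and 1898 CPM after sevoflurane. Of the 8 log2 fold changes, 5 were negative and 3 positive, and 3 markers were lower at an unadjusted p under 0.05. The count of lower astrocyte markers was 3 when control replicate 3 was left out and 2 when sevoflurane replicate 3 was. Of 7 microglia markers, CX3CR1 was lower and 6 not called (-1.03, SE 0.14, edgeR adjusted p = 0.02), with sums of 348 and 310.3 against 229.9 and 280.0 CPM. The list was mixed: at an unadjusted p under 0.05, 2 of the 7 were lower and 2 higher. The higher ones were C1QA (0.66, SE 0.22) and C1QB (0.67, SE 0.25). Of 7 fibroblast markers, SLC6A13 was higher and 6 not called (1.43, SE 0.25, 0.0465), with sums of 215 and 103 against 528 and 193 CPM. All 7 had positive log2 fold changes (median 0.99), and 3 were higher at an unadjusted p under 0.05. SLC6A13 was not called by limma-voom, without TMM scaling, without a filter, or when control replicate 2, control replicate 3 or sevoflurane replicate 2 was left out. Leaving out sevoflurane replicate 3 gave 4 higher fibroblast markers. None of 7 endothelial markers was called by edgeR, DESeq2 or limma-voom, and 0 passed an unadjusted p under 0.05, with sums of 258 and 269 against 284 and 281 CPM. The part of these differences in the values of the 10 genes was not tested.

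**Figure D5:**
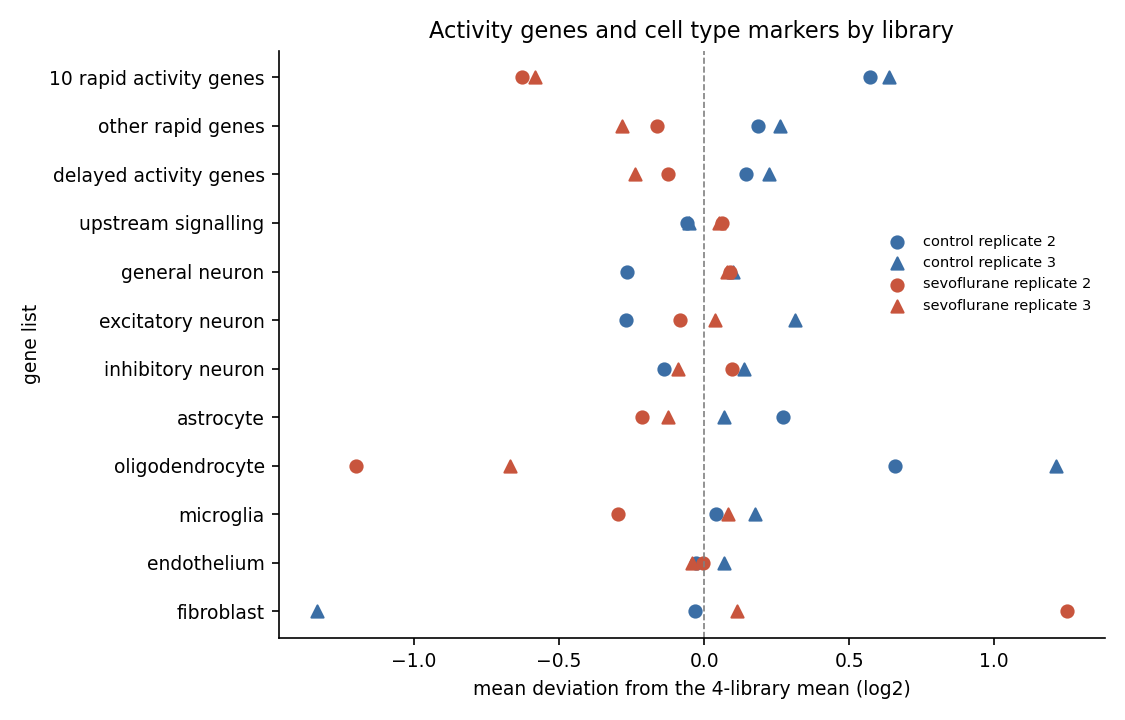
Mean deviation of each gene list from its own mean over the 4 libraries, in log2 units, with circles for replicate 2, triangles for replicate 3, blue for control and red for sevoflurane. The 10 genes lie at 0.57 and 0.64 in the controls and at -0.63 and -0.58 after sevoflurane, the neuron markers scatter without separating the groups, and oligodendrocyte markers separate them by more.

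The genes whose pattern over the 4 libraries was most like those of ARC and NPAS4 were sought among 17184 other tested genes with a mean of at least 1 CPM. Likeness was the Euclidean distance between log2 levels centred on each gene's mean, so with 4 libraries it mainly reflects the size of the group difference. The nearest to ARC was PER2, a period protein of the circadian clock, at a distance of 0.11. PER2 had 142 and 116 CPM in control replicates 2 and 3, and 42.0 and 36.8 CPM in sevoflurane replicates 2 and 3 (-1.71, SE 0.16, edgeR adjusted p = 0.00435). LOC107000385 (0.14), LOC106997317 (0.20), DUSP6 (0.23) and C9H10orf105 (0.29) followed, of which LOC106997317 and DUSP6 were called lower. NPAS4 had no neighbour as near: RPS15A, a ribosomal protein gene whose family has near-identical copies, lay at 0.55, LOC715954 at 0.66, and the myelin genes MAL, GJB1 and MBP at 0.73, 0.78 and 0.79. Of these 5, all but LOC715954 were called lower. LOC715954 had 2.05 and 3.05 CPM in control replicates 2 and 3, and 0 and 0.255 CPM in sevoflurane replicates 2 and 3. Its sevoflurane levels lay below the 0.5 CPM added before taking logs, so its distance depends on that setting. Among the 10 genes, ARC and TRIB1 were nearest to each other, at 0.29, and NR4A2 and IER5 at 0.31.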

How the data were processed

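RNA-seq measured gene expression in 4 libraries. The authors deposited 1 table of raw counts of reads per gene, in which whole numbers sum to a different total in each library. HISAT2 was the aligner, per the submitters' processing notes. Its version, the read counter, the annotation and build, the use of strand and the handling of multi-mapped reads are not stated in the sources used here, so overlapping and antisense genes cannot be told apart. Names came from the file and RefSeq (assembly T2T-MMU8v2.0). No transcript lengths were available, so levels were not compared between genes, and no sequence was used.

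The fit used edgeR 4.0.16 in R 4.3.3: filterByExpr (minimum count 10, minimum total 15), TMM scaling, and a two-sided quasi-likelihood F test on group without covariates, adjusted by Benjamini-Hochberg over all genes tested. The SE is the absolute log2 fold change divided by the square root of F. Deviations used log2(CPM + 0.5). With 2 libraries against 2, an exact permutation test cannot give a two-sided p below 0.333, so single measures were not tested. The steps were tested on simulated counts with 99 genes changed at each fold. They recovered 52.5% of 2-fold and 78.8% of 4-fold changes, with 11 false calls. A gene that was not called may therefore still have changed, and a called gene may be a false call. The genes, lists and tests were chosen with earlier results of these data known. Of 183 list entries, 3 were matched through a RefSeq gene number and 2 through a synonym. The 2 entries CCN1 and MRTFB were not found by name and so were not tested under these names. Named are the 10 genes, the called genes of each list, the 2 smallest p-values of a pathway list with no call, and the 5 nearest neighbours of NPAS4 and ARC. Alternatives were other scalings, filters and tests (DESeq2 1.42.0, limma 3.58.1), the replicate number as a block, and each library left out.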

Additional observations from a re-analysis of the deposited data

How the results depend on the processing

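NPAS4, ARC, NR4A3 and TRIB1 were called lower under all 12 alternatives, NR4A1 under 10 and NR4A2 under 2, and IER2, IER5, BTG2 and SIK1 under none. All 10 log2 fold changes were negative under every alternative. The count of the 10 genes called lower was between 4 and 6. The replicate number as a block gave 6, against 1.93% of all genes called lower, with NR4A2 called (-0.70, edgeR adjusted p = 0.026). The labels do not say that replicate numbers pair the libraries, and deviations of libraries with the same number had a correlation of 0.01. Over all genes, the main test gave 95 lower and 11 higher, no filter 57 and 3, DESeq2 219 and 60, the likelihood ratio test 304 and 137, the replicate block 341 and 170, and limma-voom 7 higher. With each library left out in turn the counts ran from 118 to 232 lower and from 27 to 81 higher. The share of calls that were lower was 89.6% in the main test, 90.2% with library size alone, 68.9% by the likelihood ratio test and 66.7% with the block. Of all tested genes, the likelihood ratio test called 1.72% lower and the block 1.93%. Of the other rapid activity genes, the likelihood ratio test called 7 lower and 1 higher (MAFF), the block 8 lower, and leaving out a library between 3 and 7 lower. The block also called 6 of the 15 delayed genes lower, against 1.93% of all genes. It called 4 of the 7 fibroblast markers higher, against 170 of all 17693 genes. The cause of these shifts was not tested. A left-out library leaves its group with 1, which is assumed to vary like the other group. Depth limits NPAS4 and BTG2 most, with 18 to 73 reads in their sevoflurane libraries and the BTG2 controls.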

Other observations

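The control libraries differed from each other in opposite directions for different members of the set. Control replicate 3 had 1.65 times the NPAS4 level of control replicate 2, 1.69 times the NR4A2 level and 1.54 times the IER5 level. Control replicate 2 in turn had 1.53 times the NR4A1 level and 1.37 times the NR4A3 level of control replicate 3. Exact 95% Poisson intervals, which cover counting error only, did not overlap for any of these 5 genes. For NPAS4 they were 11.0 to 15.6 CPM in control replicate 2 and 18.5 to 25.3 CPM in control replicate 3, and for NR4A1 105.7 to 119 CPM and 67.2 to 79.6 CPM. ARC, TRIB1, IER2, SIK1 and BTG2 differed by 1.17 times or less between the control libraries. The intervals of ARC still did not overlap, at 310 to 332 CPM in control replicate 2 and 266 to 290 CPM in control replicate 3. Those of TRIB1, IER2, SIK1 and BTG2 did. With 2 libraries per group these are values of 2 samples, with no test.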
